A study of Mus musculus with 17 samples.

Results

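STAG2 and LIN54 sites were set against each other in urothelium, the lining of the bladder, peeled from animals whose Stag2 gene was left intact (Stag2-WT mice). The members are the peak lists of 2 CUT&RUN libraries made with an antibody against STAG2 and 3 made with an antibody against LIN54, 5 of the 17 samples of the series and all of batch 1. From these, gene ends and distal regions on chromosomes 1 to 19 were sorted into those marked in every library of one antibody and no library of the other (STAG2-only or LIN54-only) and those marked in all 5 (shared). Of 41330 gene ends, 1008 were STAG2-only (2.44%), 282 were LIN54-only (0.682%) and 3060 were shared (7.4%); of 1129959 distal regions, 19058 (1.69%), 5001 (0.443%) and 7107 (0.629%) fell into these classes. The libraries that did not take part in this sorting, used below to look at the classes again, came from Stag2-KO urothelium (2 STAG2-KO and 2 LIN54-KO libraries of batch 1, and 3 p130-KO libraries of batch 3) and from Stag2-WT urothelium (3 p130-WT libraries, of batches 2 and 3). Library names give the antibody and then the state of Stag2, so the gene of LIN54 is intact in LIN54-KO. All animals, Stag2-WT included, had undergone TMX induction 1 week earlier, and about 500000 cells went into each condition. The age and sex of the animals, the driver of recombination and whether animals were pooled are not given in the sources used here.

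Cohesin, of which STAG2 is a subunit, is the ring complex that holds sister chromatids together and extrudes chromatin loops, which end where CTCF, a DNA-binding protein, stops them. LIN54 is the subunit that lets the MuvB core touch DNA, through a short sequence called the CHR. With p130 and E2F the core forms DREAM, which silences cell cycle genes in resting cells, and with B-MYB it activates mitotic genes later. At many mitotic promoters a CHR lies close to CCAAT boxes, the sequence bound by NF-Y. Normal urothelium divides rarely, so most of its cells are at rest.

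A gene end was called marked by a library when it had a peak summit no more than 500 bp from the first or last base of a protein-coding gene. The deposited lists are long and mostly weak: 288674 and 350931 peaks on chromosomes 1 to 19 for STAG2, against 348160, 357816 and 367179 for LIN54, with p up to 0.05. Peaks at a q of 0.01 or lower (q is p corrected for the number of tests by the peak caller) numbered 25604 and 13193 for STAG2, against 4729, 6512 and 2134 for LIN54. Depth, taken as the background coverage that fold and p imply, was 1.74 and 1.36 fragments per base for STAG2 and 1.41, 1.28 and 1.46 for LIN54. Each class is therefore given from the deposited lists and again at q 0.01, and where a library has no peak, none was detectable at its depth. At q 0.01, 872 ends were STAG2-only (2.11% of all ends), 35 were LIN54-only (0.0847%) and 796 were shared (1.93%). At the luminal urothelium markers, which check the tissue label, both STAG2 libraries marked 12 of 22 genes and all 3 LIN54 libraries marked 9, compared with 32.5% and 21.4% of all genes; the uroplakin genes Upk1a and Upk2 were marked in all 5. At the basal urothelium markers the counts were lower, 2 of 13 genes in both STAG2 libraries and 1 of 13 in all LIN54 libraries. Smooth muscle genes were marked in both STAG2 libraries at 0 of 10 and in all LIN54 libraries at 1 of 10, endothelial genes at 1 of 10 by each antibody, immune genes at 2 and 1 of 14, and fibroblast genes at 6 and 3 of 12. The part of other cell types in the classes was not tested.

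The promoters below were picked from the gene ends named in this report. Each covers 250 bases before and 50 after the transcription start, 5′ to 3′ on the gene's strand, from RefSeq on GRCm38.p6 (the assembly of mm10). The start RefSeq gives there can lie up to 500 bp from the outermost end of the gene. Capitals mark CCAAT, the CHR letters TTTGAA or TTCGAA, and the E2F letters TTTCCCGC, TTTGGCGC or TTCCCGCC, on either strand; TTTCCCGC and TTCCCGCC can overlap, and TTCGAA reads the same on both strands. Mcm7 (chr5:138171834-138172133, minus strand) and Ddx47 (chr6:135011362-135011661, plus strand) were marked at q 0.01 by both STAG2 libraries and had no LIN54 summit in the window:
Mcm7: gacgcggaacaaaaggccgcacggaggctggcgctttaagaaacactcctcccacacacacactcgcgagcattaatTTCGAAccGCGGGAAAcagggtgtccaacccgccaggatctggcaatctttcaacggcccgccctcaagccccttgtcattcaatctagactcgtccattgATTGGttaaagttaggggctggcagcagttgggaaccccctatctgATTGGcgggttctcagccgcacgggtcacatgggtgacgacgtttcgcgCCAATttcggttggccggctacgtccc
Ddx47: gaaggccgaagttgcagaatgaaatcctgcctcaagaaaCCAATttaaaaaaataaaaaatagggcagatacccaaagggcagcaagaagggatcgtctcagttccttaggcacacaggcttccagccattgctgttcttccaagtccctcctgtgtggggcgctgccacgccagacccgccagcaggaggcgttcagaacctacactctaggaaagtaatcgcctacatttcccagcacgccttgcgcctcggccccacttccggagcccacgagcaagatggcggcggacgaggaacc
Ubb (chr11:62550921-62551220, plus strand) and Rpl24 (chr16:55966025-55966324, plus strand) were marked at q 0.01 by all LIN54 libraries and had no STAG2 summit in the window, while Gna11 (chr10:81545113-81545412, minus strand) had STAG2 peaks that missed q 0.01:
Ubb: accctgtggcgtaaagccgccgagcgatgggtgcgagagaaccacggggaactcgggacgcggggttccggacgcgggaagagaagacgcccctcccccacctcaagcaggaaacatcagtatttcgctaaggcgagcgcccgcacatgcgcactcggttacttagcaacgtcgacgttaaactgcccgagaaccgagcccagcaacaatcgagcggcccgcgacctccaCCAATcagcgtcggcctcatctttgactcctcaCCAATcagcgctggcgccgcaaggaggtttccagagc
Rpl24: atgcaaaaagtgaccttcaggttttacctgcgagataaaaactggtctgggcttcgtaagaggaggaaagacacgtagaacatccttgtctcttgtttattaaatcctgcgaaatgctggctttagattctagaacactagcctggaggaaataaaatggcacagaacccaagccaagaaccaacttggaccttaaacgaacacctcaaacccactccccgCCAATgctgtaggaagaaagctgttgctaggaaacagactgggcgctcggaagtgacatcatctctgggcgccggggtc
Gna11: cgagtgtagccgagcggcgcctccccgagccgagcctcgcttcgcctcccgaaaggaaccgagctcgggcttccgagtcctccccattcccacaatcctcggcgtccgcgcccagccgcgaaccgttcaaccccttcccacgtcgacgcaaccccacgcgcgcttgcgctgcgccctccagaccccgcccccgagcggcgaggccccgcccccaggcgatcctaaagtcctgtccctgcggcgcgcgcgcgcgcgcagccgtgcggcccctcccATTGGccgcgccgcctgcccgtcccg
Gsk3b (chr16:38088751-38089050, plus strand) and Slc25a42 (chr8:70212232-70212531, minus strand) were among the strongest ends marked by both antibodies at q 0.01:
Gsk3b: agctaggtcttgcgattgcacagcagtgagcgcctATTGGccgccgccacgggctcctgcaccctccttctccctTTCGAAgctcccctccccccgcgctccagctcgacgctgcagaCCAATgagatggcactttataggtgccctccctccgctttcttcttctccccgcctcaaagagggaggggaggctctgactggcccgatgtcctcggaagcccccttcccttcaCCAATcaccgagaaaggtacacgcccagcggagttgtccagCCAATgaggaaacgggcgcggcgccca
Slc25a42: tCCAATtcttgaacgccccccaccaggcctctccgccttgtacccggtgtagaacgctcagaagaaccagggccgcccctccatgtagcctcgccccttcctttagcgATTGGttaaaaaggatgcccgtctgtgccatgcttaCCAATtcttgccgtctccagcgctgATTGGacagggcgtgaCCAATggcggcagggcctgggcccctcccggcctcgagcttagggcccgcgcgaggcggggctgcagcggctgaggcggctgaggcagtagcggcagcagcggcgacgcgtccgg
Each of the 7 promoters holds at least 1 CCAAT, but those of Atp6v1a, Naa50 and Mr1, named below, hold none. Among the 7, those of Gsk3b and Mcm7 also hold TTCGAA, and that of Mcm7 holds an E2F word close after it.

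Ends marked by both antibodies were mostly promoters. Of the shared ends whose strand is known, 96.5% were 5′ ends (2463 against 89 3′ ends), compared with 64.1% of STAG2-only ends (512 against 287), 64.1% of LIN54-only ends (139 against 78) and, by construction, 50% of all ends. At q 0.01, 92.3% of STAG2-only, 100% of LIN54-only and 97.9% of shared ends were 5′ ends, with 53, 0 and 14 3′ ends left. An end of another gene lay in the same window at 28.3% of shared ends, compared with 10.8% of all ends, and there the genes are not told apart. Shared ends made up 43.3% of the 7074 ends that both STAG2 libraries marked and 67.6% of the 4526 that all LIN54 libraries marked. At q 0.01 these shares were 29.6% of 2688 and 78.1% of 1019. These sets were not compared with a random placement.

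At the 5′ ends of shared genes the summits lay just upstream of the start with either antibody. The median summit was 70 and 57 bp upstream in the STAG2 libraries, against 80, 87 and 69 bp upstream in the LIN54 libraries; the means were -63.5 ± 9.19 bp (SD, n = 2) and -78.67 ± 9.07 bp (SD, n = 3), a difference of 15.17 bp that did not pass the test (two-sided exact permutation p = 0.3). Between a STAG2 and a LIN54 library, the 2 summits at one shared end were a median of 77 to 102 bp apart, and between libraries of the same antibody 75 to 85 bp. The STAG2 peaks there were broader, with median widths of 1794 and 804.5 bp, against 592.5, 728 and 455 bp for LIN54 (exact permutation p = 0.1, the smallest that 2 against 3 libraries can give). Over the 3060 shared ends, the folds of the STAG2 libraries had a Spearman correlation of 0.531 with each other and those of the LIN54 libraries 0.612 to 0.725, while across antibodies it was 0.33 to 0.507. These correlations run over ends within a pair of libraries and are given as a description; ends are not independent replicates, and the values of a pair share the same ends.

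**Figure D1:**
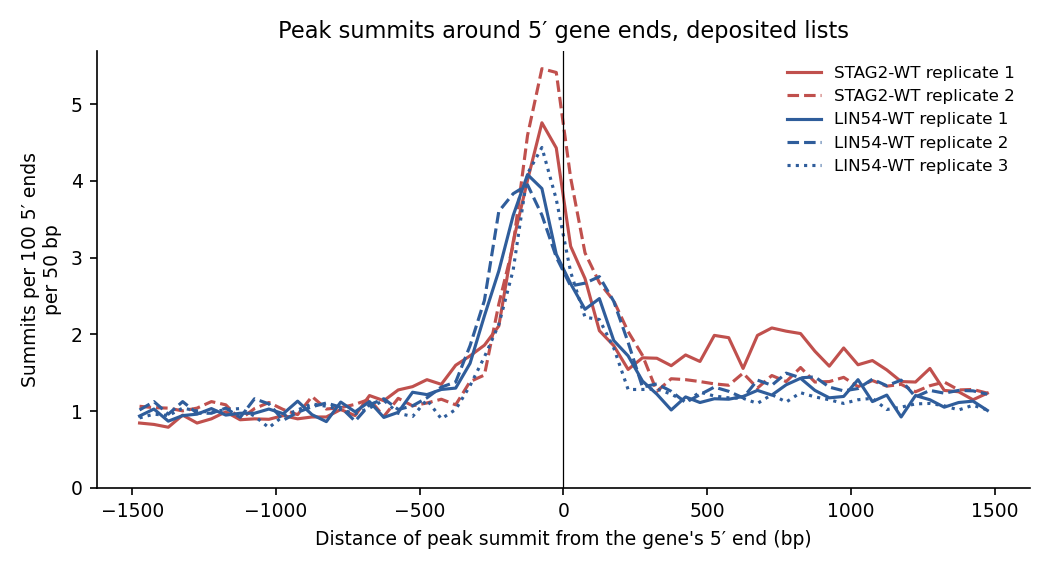
Peak summits per 100 5′ gene ends in bins of 50 bp (y axis) by distance from the 5′ end in bp (x axis, negative is upstream), one line per library of the deposited lists. All 5 lines rise just upstream of the end, and the STAG2 replicate 2 line reaches the highest value, 5.46 summits per 100 ends.

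The strongest shared ends belonged to genes of many roles. Fold is the authors' value at the summit, pileup over the background of its own library, so it ranks peaks within a library and is not compared between antibodies by a test. At Gsk3b, the kinase that restrains WNT and insulin signalling, folds were 9.34 and 11.5 with STAG2, against 33.6, 41.3 and 31.3 with LIN54. At Slc25a42, the mitochondrial carrier of coenzyme A, they were 12.9 and 16.6 with STAG2, against 26.1, 24.2 and 16.8 with LIN54. All LIN54 values at these genes lie above all STAG2 values. At Arrdc2, an arrestin family gene, the sets overlapped, with 13.5 and 24.4 for STAG2 and 15.2, 16.8 and 12.2 for LIN54. Zbtb5, a zinc finger gene, had 12.9 and 21.4 with STAG2, against 20.8, 14.6 and 16.9 with LIN54. Srgap2, Uvrag and Wipi1 (autophagy), G3bp1 (stress granules), Kdm4a (a histone demethylase) and Abhd2 completed the 10 best ranked, with folds of 8.23 to 16.3 for STAG2 and 7.35 to 28.5 for LIN54. Every one of the 10 is a 5′ end, and each was also marked by both STAG2-KO libraries, both LIN54-KO libraries and at least 5 of the 6 p130 libraries.

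Most ends that looked exclusive at q 0.01 had weaker peaks of the other antibody. Of the 872 STAG2-only ends at q 0.01, 56 had no LIN54 summit in any deposited list, 146 had one in 1 LIN54 library, 313 in 2 and 357 in all 3. Of the 35 LIN54-only ends, 6 had no STAG2 summit, 20 had one in 1 library and 9 in both. At 28 of the 56, a LIN54 peak with its summit outside the window reached into it, and a STAG2 peak did so at all 6 of the LIN54-only ends. The nearest LIN54 summit lay 503 to 3468 bp from the 56 ends (median 668 bp), within 1000 bp at 41 of them. The nearest STAG2 summit lay 772 to 1061 bp from the 6 ends. Among the 28 STAG2-only ends that no LIN54 peak touched were those of Pik3r1, the regulatory subunit of PI3 kinase, and Fads1, a fatty acid desaturase, both chosen after their values were seen.

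The strongest of the 56 STAG2-only ends was the 5′ end of Iqsec1 (chromosome 6, position 90988480), an exchange factor for ARF GTPases. Its folds were 9.1 and 10.9 with STAG2 and it had no LIN54 summit, the nearest being 530 bp away. A LIN54 peak with its summit outside the window reached into it in all 3 LIN54-WT libraries there and at 7 others of the 10 best ranked ends, and in 1 library at Crygn and at Ddx47. At Iqsec1 the STAG2-KO libraries gave 3.13 and 6.63, the LIN54-KO and p130 libraries no summit. The divergent start of Atp6v1a, the catalytic subunit of the proton pump V-ATPase, and Naa50, an N-terminal acetyltransferase, shared one window with folds of 9.34 and 8.53. At Chp1, an EF-hand protein, STAG2 folds were 7.92 and 8.77, and the LIN54-KO libraries gave 7.5 and 6.25 although no LIN54-WT summit fell in the window. At Ddx47, an RNA helicase of ribosome assembly, STAG2 folds were 5.65 and 10.0. Slc25a25, a mitochondrial carrier of ATP-Mg, had 5.63 and 8.06 with STAG2. LIN54-KO replicate 2 gave 18 at Slc25a25 and 11.9 at Atp6v1a, above the STAG2-WT folds, and LIN54-KO replicate 1 no summit at either. Setd5, a SET domain gene, had 5.48 and 7.87 with STAG2. The other 3 of the 10 best ranked were 3′ ends, at the lens crystallin gene Crygn, the H3K4 methyltransferase gene Setd1a and Tmem145, with STAG2 folds between 5.47 and 8.49. An end of Hsd3b7 lay in the window of Setd1a, and an end of Exd1 in that of Chp1.

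The strongest of the 6 LIN54-only ends was the 5′ end of Ubb (chromosome 11, position 62551171), a polyubiquitin gene. LIN54 folds were 11.5, 11.5 and 7.43, with the nearest STAG2 summit 880 bp away. In the LIN54-KO libraries the fold was 18.6 and 16, in STAG2-KO replicate 2 it was 3.79, and 4 of 6 p130 libraries marked it. Rpl24, a large ribosomal subunit gene, had LIN54 folds of 5.88, 6.12 and 4.13. Klf16, a zinc finger transcription factor gene, had 7.31, 8.92 and 4.63, and Fem1a, a substrate receptor of a ubiquitin ligase, 7.99, 7.68 and 3.59. Mr1, which presents vitamin B metabolites to T cells, had 5.97, 5.23 and 4.66, and Ttc12, needed to assemble ciliary dyneins, 4.8, 4.32 and 5.03. STAG2-KO libraries 1 and 2 marked 3 and 4 of the 6, and LIN54-KO libraries 1 and 2 marked 5 and 6; Klf16 was the one that neither STAG2-KO library marked. Ubiquitin, ribosomal protein, histone and heat shock genes have close copies elsewhere in the genome, and how reads that match several places were counted is not given in the sources used here. Gna11, a G protein alpha subunit gene that was LIN54-only at q 0.01, had folds of 2.3 and 2.15 with STAG2, against 7.48, 9.91 and 7.43 with LIN54. H2-M3, a nonclassical MHC gene, had 1.98 and 2.53 with STAG2, against 6.12, 8.05 and 5.97 with LIN54. The order of the antibodies at these genes follows from how they were chosen.

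**Figure D2:**
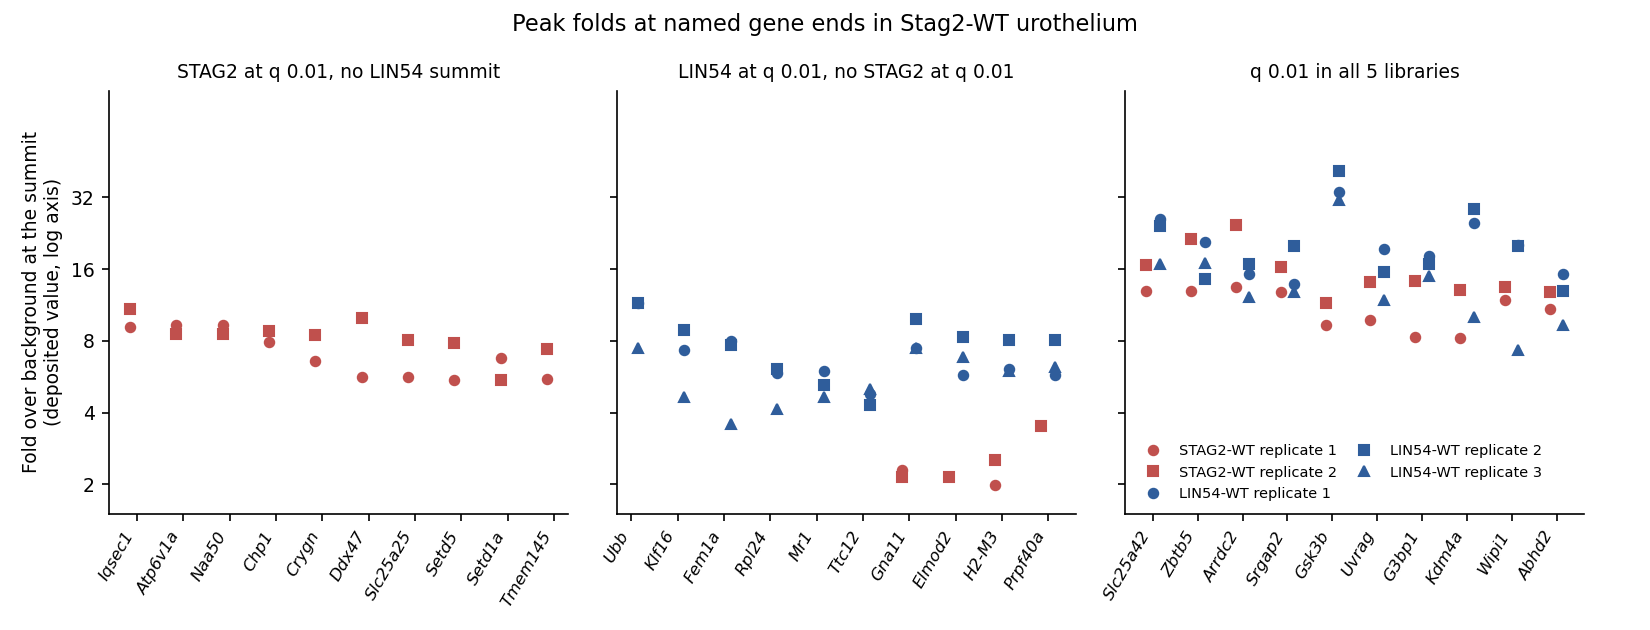
Deposited fold over background at the summit (y axis, log scale) at named gene ends (x axis), one point per Stag2-WT library, STAG2 left of LIN54 at each gene, for the 10 best ranked STAG2-only ends with no LIN54 summit, the 6 LIN54-only ends with no STAG2 summit beside 4 that were LIN54-only at q 0.01, and the 10 best ranked shared ends. No point means no summit within 500 bp; Gsk3b has the highest LIN54 value, 41.3.

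CCAAT was in most LIN54-only and most shared promoters at q 0.01, and in fewer STAG2-only promoters. A RefSeq promoter could be matched to 597 of the 633 STAG2-only, all 29 LIN54-only and 623 of the 656 shared 5′ ends at q 0.01. CCAAT, on either strand, was in 42.5% of STAG2-only promoters (254), 86.2% of LIN54-only promoters (25) and 67.1% of shared promoters (418), compared with 39.6% of all 14217 promoters of the same length. Another gene's end lay in the window at 18.8%, 28.6% and 34.4% of the ends of these classes, so neighbouring promoters can overlap and are counted apart. Sorted by the number of LIN54 libraries with a q 0.01 peak (0, 1, 2 and 3), ends marked at q 0.01 by both STAG2 libraries had CCAAT in 42.5%, 46.4%, 55.3% and 67.1%. Ends marked at q 0.01 by neither STAG2 library had it in 36.9%, 33.7%, 57.0% and 86.2%. The CHR letters were in 12.7% of STAG2-only, 20.7% of LIN54-only (6 promoters) and 14.3% of shared promoters, compared with 17.8% of all, and their short length makes chance matches common. The LIN54-only promoters with both a CHR and CCAAT were those of Smc2 (condensin), Ccnb2 (cyclin B2), the histone genes H2ac8 and H2bc8, and Ttc12. E2F words were in 8.21%, 6.9% and 8.19% of the 3 classes, compared with 4.38% of all promoters. The AP-1 letters TGAGTCA, on either strand, were in 3.69%, 0% and 3.05%, compared with 4.67%. Median GC content was 62.7% in STAG2-only, 56.3% in LIN54-only and 61.7% in shared promoters, compared with 56.7% of all; its part in the motif shares was not tested. In the deposited classes, whose one-antibody ends are mostly other ends, CCAAT was in 33.8%, 35.8% and 52.3%. Where ends at q 0.01 had no deposited summit of the other antibody, 32 STAG2-only and 5 LIN54-only promoters were matched. CCAAT was in 53.1% and 80% of these, the CHR letters in 21.9% and 20%, and E2F words in 12.5% and 0%. A match is a description of the letters and not a bound site.

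The CTCF core motif was rare at promoters. It was in 18 of the 597 STAG2-only promoters at q 0.01 (3.02%), in none of the 29 LIN54-only and in 5 of the 623 shared promoters (0.803%), compared with 0.584% of all promoters. Among ends marked at q 0.01 by both STAG2 libraries, its share was 3.02%, 1.1%, 0.741% and 0.803% with 0, 1, 2 and 3 LIN54 libraries at q 0.01. Among ends with no LIN54 peak at q 0.01 it was 0.435%, 0.572% and 3.02% with 0, 1 and 2 STAG2 libraries at q 0.01. Most of the STAG2-only ends at q 0.01 had a weaker LIN54 peak. In the deposited classes it was 0.664% of STAG2-only and 0.598% of shared promoters, near the share of all. The deposited STAG2-only ends are mostly other ends. Of the 872 at q 0.01, 56 stay STAG2-only when weaker LIN54 peaks count, and 1 of the 32 promoters matched to these held the core. The 18 promoters include those of Cldn1 (a tight junction claudin), S100a6 (a calcium-binding protein), Rplp0 (the ribosomal stalk) and the ubiquitin ligase gene Cbl, named here after their values were seen.

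**Figure D3:**
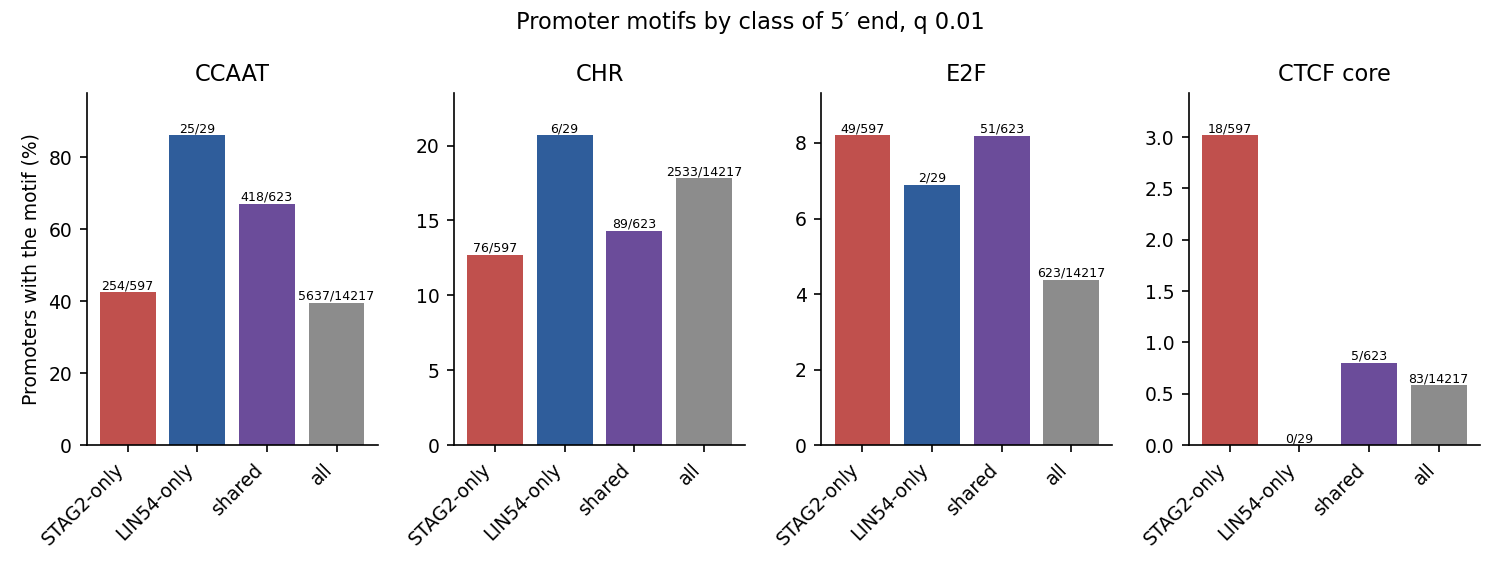
Percent of 300-base promoters (y axis) with each motif at 5′ ends that were STAG2-only, LIN54-only or shared at q 0.01, and in all promoters (x axis); numbers above the bars give promoters with the motif over promoters searched, and each panel has its own scale. CCAAT stands at 42.5%, 86.2%, 67.1% and 39.6%, and the CTCF core at 3.02%, 0%, 0.803% and 0.584%.

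Most cell cycle genes that DREAM is known to silence were in no class. Those in a class of the deposited lists were mostly shared, which is also the largest class over all genes. At q 0.01 they were spread over the classes. Of 72 G2/M genes on the list, 1 was STAG2-only, 2 were LIN54-only and 27 were shared in the deposited lists (of all genes, 4.8%, 1.36% and 14.7%). Of 73 G1/S genes, 5 were STAG2-only, 1 was LIN54-only and 24 were shared. At q 0.01, the counts were 4, 3 and 8 for G2/M genes and 6, 0 and 6 for G1/S genes (of all genes, 4.19%, 0.169% and 3.85%). The 3 LIN54-only G2/M genes at q 0.01 were Ccnb2, H2az1 (histone H2A.Z) and Smc2; the 4 STAG2-only ones were Ccnf, Cdkn3, Cenpa and Incenp. The lists were chosen with results of these data known, and gene counts of this size were not tested.

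Among the shared G2/M ends, Cdca2, a mitotic phosphatase targeting subunit, had folds of 5.32 and 9.34 with STAG2, against 15, 19.1 and 15 with LIN54, in a window it shares with Kctd9. Ect2, a gene of cytokinesis, had 6.93 and 6.21 with STAG2, against 7.77, 10.1 and 11 with LIN54. At both, every LIN54 value was above every STAG2 value, and all 6 p130 libraries had a summit. Among the shared G1/S ends, Gins2, a subunit of the replicative helicase, had 4.61 and 6.93 with STAG2, against 12.2, 11.9 and 9.38 with LIN54, and all 6 p130 libraries marked it.

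Mcm7 and Msh6 were the list genes whose ends were STAG2-only at q 0.01 with no LIN54 summit. At the 5′ end of Mcm7, a subunit of the MCM helicase (chromosome 5, position 138172111, shared with Ap4m1), STAG2 folds were 7.08 and 3.97, with summits 71 and 106 bp downstream of the gene's 5′ end. In each of the 3 LIN54 libraries a peak reached into the window from a summit 924 to 964 bp away, and all 6 p130 libraries had a summit inside it. At Msh6, a mismatch repair gene, STAG2 folds were 3.98 and 4.62; the LIN54-KO libraries gave 3.77 and 5.56, and the nearest LIN54-WT summit was 531 bp away. A LIN54-WT peak reached into the Msh6 window in replicates 1 and 2, from summits 531 and 560 bp away. In replicate 3 none did, and its nearest summit was 3747 bp away. Mcm7 thus stands in the STAG2-only class by the position of the LIN54 summit in each library, and Msh6 in replicates 1 and 2 only. Dscc1, a cohesion factor of the replication fork, and Dtl and Ung were the other 3 STAG2-only G1/S genes of the deposited lists. A gene with its ends in different classes counts in each: Dtl was STAG2-only at its 3′ end and also shared, as was Rpl27, and Ncapd2 was LIN54-only at its 3′ end and also shared. Of the LIN54-only cell cycle genes, Nuf2, a kinetochore gene, had LIN54 folds of 3.37, 3.04 and 2.91, and Gmnn, which blocks replication licensing, 2.05, 2.88 and 1.89. All 6 p130 libraries marked Nuf2 and 4 of 6 marked Gmnn.

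Of the 14 genes for DREAM and MuvB subunits, none was in a one-antibody class of the deposited lists and 5 were shared (E2f5, Lin37, Lin52, Lin54 and Rbbp4), compared with 14.7% of all genes in the shared class. At q 0.01, Lin52 and Rbbp4 were shared. At the 5′ end of Lin54 itself the folds were 5.22 and 2.86 with STAG2, against 3.61, 2.97 and 3.14 with LIN54. Rbl2, the gene of p130, had 2.64 and 2.45 with STAG2 and 3.42 and 4.01 in LIN54 replicates 1 and 2, with no summit in replicate 3. Mybl2, the gene of B-MYB, was STAG2-only at q 0.01. Of 15 cohesin and CTCF genes, 3 were shared (Cdca5, which encodes sororin, the acetyltransferase gene Esco2 and the ring subunit gene Smc3) and 1, the acetyltransferase gene Esco1, was LIN54-only, with LIN54 folds of 2.36, 2.98 and 2.21. At q 0.01, Esco2 was shared and Cdca5 and Smc3 were STAG2-only. Of all genes, 14.7% were shared and 1.36% LIN54-only in the deposited lists, and 3.85% shared and 4.19% STAG2-only at q 0.01. Counts of this size in the 2 lists were not tested. Stag2 lies on the X chromosome, outside the regions counted here.

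Immediate early genes, the first to respond to growth factors or stress, held the highest shared count relative to their number among the lists. Of 24, 1 was STAG2-only (Egr3), 1 LIN54-only (Jund, at its 3′ end) and 13 were shared (of all genes, 4.8%, 1.36% and 14.7%); at q 0.01 it was 4, 0 and 6 (of all genes, 4.19%, 0.169% and 3.85%). At Egr1, folds were 6.96 and 12.6 with STAG2, against 17.9, 22.7 and 10.1 with LIN54, so the antibodies overlapped. At Klf6 they were 7.6 and 10.1 with STAG2, against 6.98, 13.2 and 11.1 with LIN54. Of 75 ribosomal protein genes, 4 were STAG2-only, 2 LIN54-only (Rpl24 and Rpl5) and 34 shared; at q 0.01 it was 9, 1 and 4. Of 22 luminal urothelium genes, 0 were STAG2-only, 1 was LIN54-only (Grhl3, a transcription factor of barrier formation, with LIN54 folds of 2.69, 2.98 and 2.91) and 7 were shared, among them Upk1a, Upk2, Klf5 and Gata3. At q 0.01 none of the luminal genes was shared or LIN54-only, and Upk1a was STAG2-only. Of 17 p53 targets, 3 were shared (17.6%, near the 14.7% of all genes) and none was in a one-antibody class; at q 0.01 all 3 counts were 0.

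HOX genes encode the transcription factors that set position along the body axis. Of 39, 5 were STAG2-only (Hoxa2, Hoxb3, Hoxc9, Hoxc11 and Hoxd3), compared with 4.8% of all genes, 1 was LIN54-only and 1 was shared, both at Hoxa10. At Hoxb3 the STAG2 folds were 3.08 and 4.16, and at Hoxc11 they were 3.36 and 3.1. At q 0.01, 2 HOX genes were STAG2-only (5.13%, near the 4.19% of all genes), Hoxb5 and Hoxd9, neither of them among the 5, and none was in the other classes. The 3′ end of Hoxa10 had LIN54 folds of 5.05, 4.33 and 3.95 with no STAG2 summit, and 5.32 and 6.29 in the LIN54-KO libraries. No basal urothelium, smooth muscle or endothelial gene was in any of the 3 classes. One fibroblast gene was LIN54-only (Postn) and one shared (Col1a1), one immune gene was STAG2-only (Adgre1) and one shared (Cd68), and of 30 genes of other tissues 2 were STAG2-only (Lhx5 and Rbfox3).

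**Figure D4:**
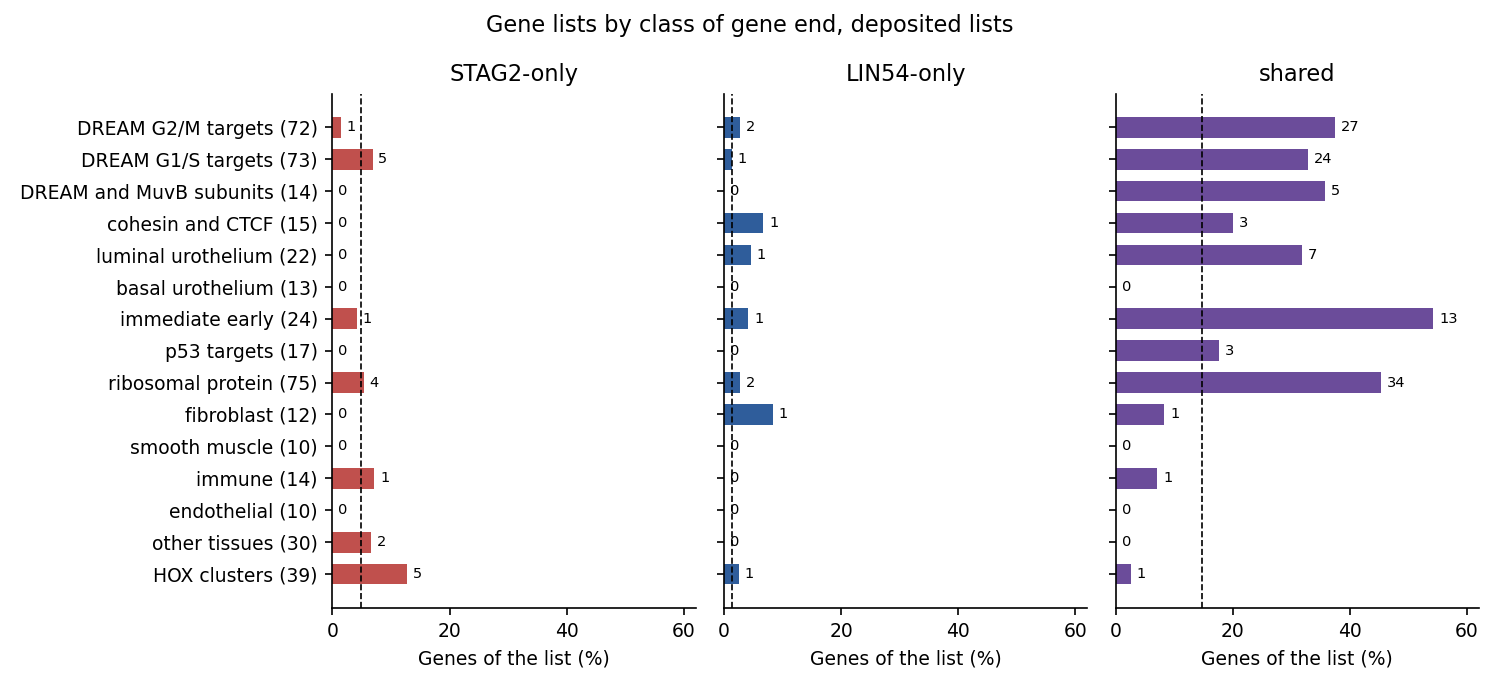
Percent of the genes of each list (x axis) with an end in each class of the deposited lists, one row per list with its number of genes on chromosomes 1 to 19 in parentheses and the count of genes beside each bar; the dashed line is the percent of all genes. In the shared class the bars reach 13 of 24 immediate early and 34 of 75 ribosomal protein genes against 14.7% of all genes.

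Libraries that took no part in the sorting marked the LIN54-only and shared ends more often than all ends. The STAG2-KO libraries, from Stag2-KO urothelium, marked 31.9% and 41.1% of the LIN54-only ends, compared with 22.8% and 28.1% of all ends. The LIN54-KO libraries, of the same genotype, marked 50% and 52.8% of them, compared with 27.9% and 29.5% of all ends. The mean was 36.52% ± 6.52 (SD, n = 2) in STAG2-KO and 51.42% ± 2.01 (SD, n = 2) in LIN54-KO libraries, a difference of -14.89 percentage points (two-sided exact permutation p = 0.33, the smallest that 2 against 2 libraries can give; 0.667 adjusted over 4 such tests). The STAG2-only ends were marked at 24.6% and 34.3% by STAG2-KO and at 28.8% and 30.3% by LIN54-KO libraries (difference -0.0496 points, exact permutation p = 1; 1 adjusted). The shared ends were marked at 69.9% and 86.8% by STAG2-KO, at 94.1% and 95.3% by LIN54-KO and at 40.8% to 81.3% by the p130 libraries, compared with 19.6% to 27.9% of all ends for p130. The classes hold more 5′ ends than all ends do, so 5′ ends were also taken alone. Of LIN54-only 5′ ends, STAG2-KO libraries marked 41.0% and 50.4% and LIN54-KO libraries 60.4% and 64.7%, compared with 32.4% and 41.1%, and 43.1% and 44.4%, of all 5′ ends. Of STAG2-only 5′ ends, they marked 28.5% and 39.5%, and 34.8% and 37.9%, below all 5′ ends in each of the 4 libraries. The p130-WT libraries, of the genotype used for the sorting, marked 39.6%, 53.2% and 39.6% of LIN54-only 5′ ends. Of all 5′ ends, p130-WT replicates 1 and 2 marked 30.6% and 40.4%, and replicate 3 marked fewer than either. The p130-KO libraries marked 28.1%, 33.8% and 26.6% of LIN54-only 5′ ends, compared with 25.9%, 26.9% and 23.7% of all 5′ ends.

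At q 0.01 the LIN54 antibody marked nearly all LIN54-only and shared ends again in Stag2-KO urothelium. The LIN54-KO libraries marked 32 and 34 of the 35 LIN54-only ends and 98.7% and 99.5% of the 796 shared ends, compared with 11.4% and 10.6% of all ends. They also marked 46.8% and 42.1% of the STAG2-only ends. The STAG2-KO libraries marked 4.36% and 28.6% of STAG2-only, 2.86% and 28.6% of LIN54-only and 32.2% and 72.1% of shared ends, compared with 1.26% and 5.28% of all ends. The STAG2-KO libraries reached only 1229 and 6752 peaks at q 0.01, against 15641 and 12915 in LIN54-KO, and the gene of their antigen is deleted in that genotype; loss of STAG2 and a low yield of the library cannot be told apart there. The p130 libraries marked 0% to 14.3% of the LIN54-only ends and 15.8% to 39.4% of the shared ends, compared with 0.571% to 1.7% of all ends. Counted without a q limit, STAG2-KO libraries marked 42.9% and 76.8% of the 56 strict STAG2-only ends, compared with 22.8% and 28.1% of all ends. LIN54-KO libraries marked 41.1% and 60.7% of the 56, compared with 27.9% and 29.5% of all ends.

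**Figure D5:**
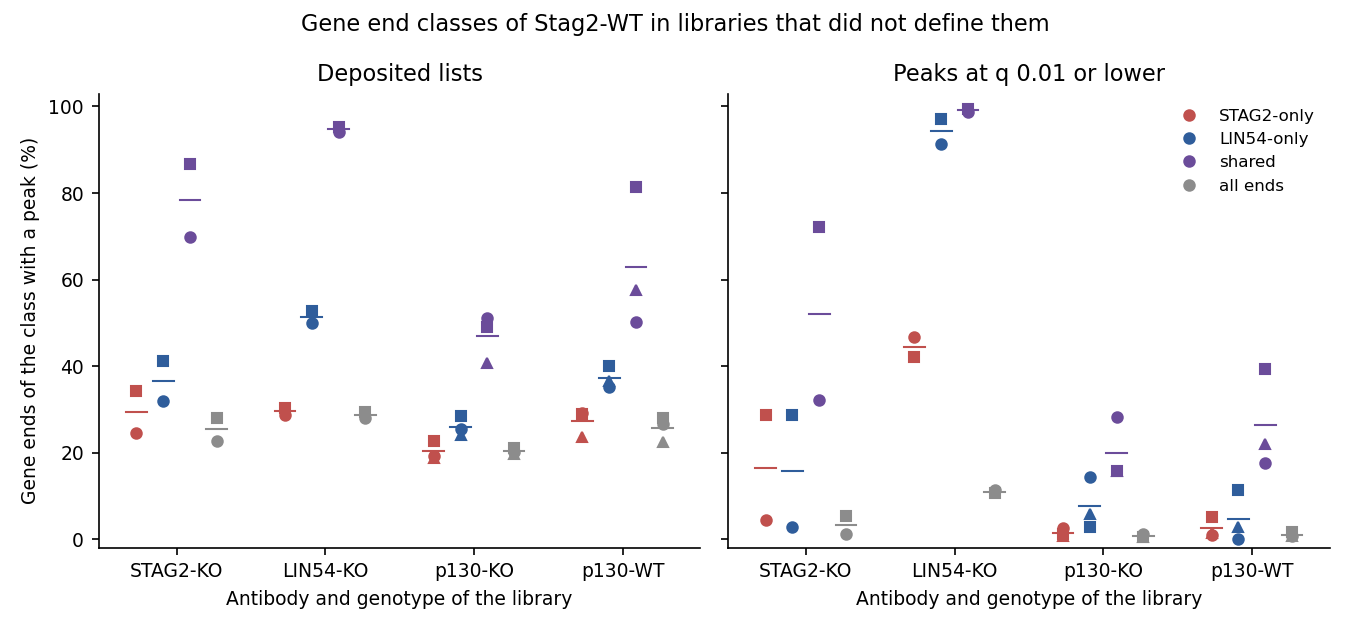
Percent of the gene ends of each class with a summit within 500 bp (y axis) in each library of Stag2-KO urothelium and of p130 (x axis), from the deposited lists (left) and at q 0.01 (right); each point is a library (circle, square and triangle for replicates 1, 2 and 3) and each line a mean. In the left panel STAG2-only ends lie near all ends, while shared ends reach 94.1% and 95.3% in LIN54-KO.

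Away from gene ends, most regions that both STAG2 libraries marked were not marked by all 3 LIN54 libraries. A distal region was a merged stretch of peaks of the 5 libraries with no base within 2 kb of a gene end. Shared regions were 12.5% of the 56669 regions with a peak in both STAG2 libraries and 42.3% of the 16782 with a peak in all LIN54 libraries. Of the 56669, 19058 had no LIN54 peak, and the others that were not shared had one in some LIN54 libraries. The STAG2 share asks for a peak in all 3 LIN54 libraries and the LIN54 share for one in both STAG2 libraries, so they are not on equal terms. At q 0.01 shared regions were 5.03% of 3716 and 85.4% of 219. For LIN54 the share was thus below that at gene ends in the deposited lists and above it at q 0.01. At q 0.01 there were 2294 STAG2-only, 7 LIN54-only and 187 shared regions. Of the 2294, 146 had no deposited LIN54 peak and 1004 had one in all 3 LIN54 libraries; of the 7, 2 had no STAG2 peak. Of STAG2-only, LIN54-only and shared regions, 45.7%, 46.6% and 55.2% lay within a gene, compared with 42.9% of all regions. Shared regions were wider, with a median of 1405 bp compared with 298 bp of all regions, and wider regions can hold peaks of more libraries. Their median distance to a gene end was 21620 bp, compared with 49770 bp.

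The strongest shared distal region lay between genes near Tex44 (chr1:86439250-86444522, 13837 bp from the gene's end). Its folds were 16.4 and 26.9 with STAG2, against 9.07, 8.19 and 6.08 with LIN54, every STAG2 value above every LIN54 value. A region within Ptprs, a receptor phosphatase gene (chr17:56462000-56463073), had 9.39 and 12.3 with STAG2, against 9.12, 11.8 and 7.79 with LIN54, and a region 51091 bp from Wnt7b, a WNT ligand gene (chr15:85629959-85635865), 8.36 and 14.1 with STAG2, against 9.32, 8.93 and 6.79 with LIN54. In these the antibodies overlapped. All 6 p130 libraries had a peak in the regions near Tex44 and in Ptprs, and 5 of 6 in that near Wnt7b.

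Of the 146 distal regions with STAG2 at q 0.01 and no LIN54 peak, the best ranked lay on chr8:20424144-20425140, 61440 bp from Gm15319, with STAG2 folds of 6.57 and 6.37 and no peak in any KO or p130 library. A region within Itpkb, an inositol trisphosphate kinase gene (chr1:180407063-180407671), had STAG2 folds of 5.34 and 8.11, and one within Slc43a2, an amino acid transporter gene (chr11:75572984-75574071), had 5.93 and 5.43. The region in Slc43a2 was marked again by both STAG2-KO and both LIN54-KO libraries. That in Itpkb was marked again by STAG2-KO replicate 2 (fold 4.05) and by both LIN54-KO libraries (3.37 and 2.63). The only 2 with LIN54 at q 0.01 and no STAG2 peak lay 15845 bp from Gtpbp4 (chr13:9011688-9012234), with LIN54 folds of 5.28, 5.54 and 2.58, and within Zc3h7a (chr16:11143918-11144254), with 3.69, 3.62 and 2.32. Both were marked again by both LIN54-KO and by neither STAG2-KO library, and the first by all 6 p130 libraries.

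In KO libraries the one-antibody distal classes were marked at 14.8% to 20.2%. The LIN54-only regions were marked at 14.8% and 15.2% by STAG2-KO and at 18.9% and 20.2% by LIN54-KO libraries, a difference of -4.589 points (two-sided exact permutation p = 0.33, 0.667 adjusted). The STAG2-only regions were marked at 16.2% and 20.1% by STAG2-KO and at 16.8% and 19.8% by LIN54-KO libraries (exact permutation p = 1). All distal regions, which are narrower, were marked at 11.3% and 11.4% by STAG2-KO and at 10.9% and 12.7% by LIN54-KO. Shared regions were marked at 56.3% and 73.3% by STAG2-KO and at 77.7% and 79.5% by LIN54-KO libraries. At q 0.01, the LIN54-KO libraries marked 7 and 6 of the 7 LIN54-only regions and the STAG2-KO libraries 0. Of the STAG2-only regions, the STAG2-KO libraries marked 4.75% and 33.5% and the LIN54-KO libraries 33.4% and 34.1%. Of all regions, these shares were 0.0496% and 0.367% for STAG2-KO and 0.817% and 0.634% for LIN54-KO.

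Compared as whole lists, STAG2 peaks lay at gene ends somewhat more often. Of all peaks, 3.81% ± 0.326 (SD, n = 2) of STAG2 and 3.07% ± 0.172 (SD, n = 3) of LIN54 peaks had a summit at a gene end, a difference of 0.738 points with no overlap between libraries (two-sided exact permutation p = 0.1, the smallest possible; 0.133 adjusted over 4 tests). At q 0.01 the order turned, with 23.9% ± 1.76 of STAG2 and 44.4% ± 11.2 of LIN54 peaks (exact permutation p = 0.1). The q 0.01 lists of STAG2 are longer than those of LIN54. With the 20000 peaks of highest fold in each library the order did not turn (21.52% ± 3.62 against 14.31% ± 2.46, exact permutation p = 0.1). Distal intergenic sequence held 49.28% ± 0.344 of STAG2 and 51.22% ± 0.497 of LIN54 peaks (exact permutation p = 0.1), and at q 0.01 28.4% ± 6.75 and 22.7% ± 4.94 (exact permutation p = 0.6). STAG2 peaks were wider, with a median of 324 ± 25.5 bp, against 262.3 ± 23.0 bp for LIN54 (exact permutation p = 0.1). The bases covered by 2 libraries overlapped little: the mean Jaccard index, shared over covered bases, was 0.0713 within an antibody and 0.0733 between (one-sided exact permutation p = 0.5). At q 0.01 it was 0.207 within and 0.107 between (exact permutation p = 0.1). With 2 against 3 libraries no test here can reach 0.05.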

How the data were processed

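Peaks were deposited by the authors as one list per library. The tools named in the submitters' processing notes are MACS2, Bowtie2 and bcl2fastq, and the build is mm10; versions, settings and whether a control library entered the calls are not given in the sources used here. The deposited lists hold a fold (a ratio of pileup to background at the summit), a −log10 p and −log10 q and a score per peak, all within one library, and the summit offset. The score was not used. The 2 pMNase samples were not analysed here. Fold and p together gave the background coverage of each library (tolerance 0.0002 on the log10 scale).

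Gene ends came from the RefSeq gene table (20665 protein-coding genes on chromosomes 1 to 19), and strand from the promoter table where the start matched (16457 genes); 8416 ends have no strand. Classes are counts without a test. Values per library were compared by exact permutation tests over libraries, two-sided except for the overlap. The labels call the libraries biological replicates, but do not tie them to animals, so p-values measure the spread between these libraries. No pairing by replicate number was seen in the correlations of deviations from the antibody's mean (between -0.0451 and 0.0451). With 2 STAG2 libraries these deviations mirror each other, so each correlation comes with its negative. The check cannot show that the libraries are unpaired. STAG2-WT replicate 2 carries the number 3 in its library name.

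Members, gene lists and the rule for named genes were chosen with earlier results of these data known. Named ends are the 10 best by mean rank of fold per class (q 0.01 in each library of one antibody and no deposited summit of the other, filled up at q 0.01; or q 0.01 in all 5), the 5 best distal regions likewise, list members in a one-antibody class, and Lin54 and Rbl2; other names were chosen after their values were seen. Motifs were searched on both strands of 300-base promoters. Alternatives were q 0.01, the 20000 peaks of highest fold, windows of 250 and 1000 bp, merged windows, distal limits of 500 bp and 10 kb, extended summits, fewer LIN54 libraries, a replicate block and each library left out. Chosen after seeing the data were absence judged by any peak in the window, 5′ ends alone and the strict classes in KO libraries. Code was tested on simulated data with no background peaks near gene ends. All 200 ends planted in each class were recovered, and 235 STAG2-only, 217 LIN54-only and 218 shared ends were called. The simulation checks the code and gives no error rate for the deposited lists. Scripts ran in Python 3.11.15 with SciPy 1.17.1, pandas 2.3.3, Matplotlib 3.10.9 and NumPy 2.4.6. One result at a named gene end is not reported here.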

Additional observations from a re-analysis of the deposited data

Results flagged for a closer look

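The number of peaks at q 0.01 stood in opposite order in the 2 genotypes. In Stag2-KO urothelium, STAG2 libraries had fewer than LIN54 libraries (1229 and 6752 against 15641 and 12915, a difference of means of -10287.5). In Stag2-WT urothelium, STAG2 libraries had more (25604 and 13193 against 4729, 6512 and 2134, a difference of means of 14940.2). Every library of each group follows its group's direction, and the difference between the genotypes was not tested. The background coverage was 1.74 and 2.03 in STAG2-KO against 1.43 and 1.34 in LIN54-KO libraries, and its part in the counts was not tested.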

How the results depend on the processing

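The size of every class depended on the peak threshold and on the number of libraries required. Gene ends that were STAG2-only, LIN54-only and shared numbered 35 (LIN54-only) and 796 (shared) at q 0.01, 56, 6 and 796 under the strict rule, and 519, 109 and 1069 with the 20000 peaks of highest fold. They numbered 652 (STAG2-only) and 1450 (shared) with a window of 250 bp, and 445 (LIN54-only) and 5473 (shared) with 1000 bp. With LIN54 required in 2 of 3 libraries, 1803 were LIN54-only and 4697 shared. Judged by any peak in the window, 765 were STAG2-only and 98 LIN54-only, and among 5′ ends alone 512 and 139. Leaving out each library in turn gave 1407 to 3467 STAG2-only, 572 to 1176 LIN54-only and 3350 to 3954 shared ends; STAG2-only ends numbered 3346 without STAG2 replicate 1, 3467 without STAG2 replicate 2 and 1560 without LIN54 replicate 2, and LIN54-only ends 572 and 1176 without STAG2 replicates 1 and 2 and 821, 765 and 781 without LIN54 replicates 1, 2 and 3. Fewer libraries had to agree in these counts.

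Distal regions that were STAG2-only, LIN54-only and shared numbered 2294, 7 and 187 at q 0.01, 146, 2 and 187 under the strict rule, and 1494, 57 and 472 with the 20000 peaks. LIN54-only regions numbered 8096 with extended summits, and with LIN54 in 2 of 3 libraries 69080 were LIN54-only and 18951 shared. Leaving out each library gave 24026 to 193187, 6938 to 26287 and 8682 to 12242.

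The difference in peaks at gene ends (0.738 points) was -20.53 at q 0.01, 7.21 with the 20000 peaks and 0.5078 to 0.9682 with a library left out. That in distal intergenic sequence (-1.948) was 5.703 at q 0.01, -13.92 with the 20000 peaks and -2.191 to -1.679 with a library left out. That in width (61.67 bp) was 554.2 with the 20000 peaks and 43.67 to 79.67 with a library left out. The Jaccard difference (-0.001995) was 0.09981 at q 0.01, 0.01967 with the 20000 peaks and -0.01923 to 0.01539 with a library left out, above 0 without each LIN54 library. With a replicate block the first 3 differences were 0.6454, -1.679 and 50.5 by title numbers, and 0.8152, -1.997 and 73.5 by library-name numbers, where the smallest p is 0.5. In KO libraries the strict STAG2-only class gave 8.929 points at ends (main -0.0496) and 3.767 at distal regions (main -0.1364). The causes were not tested.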
